A study of Mus musculus with 8 samples.

Results

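Ubiquitin-conjugating enzymes of the Ube2 family and deubiquitinases of the Usp family were described in mouse oocytes and pluripotent cells. Members were taken by symbol, as every gene named Ube2 plus a letter and an optional number, or Usp plus a number, with at least 1 protein-coding transcript in the tables. The rule uses no measured value. It found 79 genes, 32 Ube2 and 47 Usp, of 48440 genes in all and of 21989 with a protein-coding transcript. Genes whose symbol carries a further letter, such as Ube2d2a and Usp9x, fall outside this rule.

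RNA was sequenced from 4 groups of 2 libraries each, all from mouse cells with no engineered allele named in the labels. GV oocytes, arrested at the germinal vesicle stage, came from females 48 h after 5 units of PMSG. They were held in 2 µM milrinone, which keeps meiosis from resuming. MII oocytes are arrested at the second meiotic metaphase, and their label repeats the GV collection text with no maturation step. ESC are embryonic stem cells kept in 15% serum with LIF and 2i (PD0325901 and CHIR99021). EpiC, labelled epiblast cells, were derived from ESC, also in 15% serum. They were plated for 24 h before LIF and 2i were withdrawn, and collected about 56 h after that. Neither strain, age nor the number of pooled oocytes is given in the labels, and no label ties a replicate to an animal or culture of its own, so p-values measure only the spread between these libraries.

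Ubiquitin is passed from an activating enzyme (E1) to a conjugating enzyme (E2), and a ligase (E3) brings the loaded E2 to the protein that is to be marked. Ubiquitin-specific proteases (Usp) cut ubiquitin off again, and some E2 enzymes carry relatives of ubiquitin such as NEDD8 and ISG15 instead. Full-grown oocytes transcribe little, so their maturation runs on stored mRNAs and on timed protein destruction, including cyclin B removal by the anaphase-promoting complex (APC/C).

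Total estimated counts ran from 47463546 to 196788239 per library, and replicate 2 was 2.36 to 3.31 times deeper than replicate 1 in each group. Summed levels of 10 oocyte markers were at least 25470 TPM in every oocyte library and at most 11.3 TPM in the cultured cells. TPM is a level per transcript length, scaled to the same sum in every library. Nanog was at 814 and 954 TPM in ESC, and at most 0.0161 TPM in oocytes, and Fgf5, an epiblast gene, was at 55.3 and 18.9 TPM in EpiC against at most 0.1 TPM elsewhere. The list of 12 cumulus and granulosa genes summed to 32.4 and 173 TPM in the GV libraries, 53.8 and 71.1 TPM in MII, and 9.55 to 26 TPM in cultured cells. The part of these cells in the results was not tested. One gene, Gm42418, held at most 0.151% of counts in replicate 1 of any group, and 1.66% (GV), 3.03% (MII), 14.7% (ESC) and 22.7% (EpiC) in replicate 2. Its part in the results was not tested, and every comparison was repeated without each library.

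The Ube2 mRNAs together were more abundant in oocytes than in cultured cells. Their summed level was 5882 and 5938 TPM in the GV libraries, 6089 and 5509 TPM in MII, 3328 and 2768 TPM in ESC, and 3902 and 2500 TPM in EpiC. Usp mRNAs summed to 3278 and 2724 TPM in GV, 3273 and 3241 TPM in MII, 1939 and 1617 TPM in ESC, and 1818 and 1200 TPM in EpiC. For both families the lowest oocyte library was above the highest cultured library. Sums were similar in GV and MII, but the shares that single genes took of them differed, as given below.

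A few genes carried each family. Ube2s, the E2 that extends ubiquitin chains for the APC/C, was the highest Ube2 mRNA in GV (1534 ± 376 TPM, SD, n = 2), ESC (696 ± 64.7) and EpiC (649 ± 147). In MII it was second to Ube2d3, an E2 that works with many ligases. Ube2d3 stood at 1504 and 1184 TPM in the GV libraries, 3215 and 2450 TPM in MII, 342 and 214 TPM in ESC, and 378 and 184 TPM in EpiC. It made up 48.6% of all Ube2 TPM in MII against 22.8% in GV and 9.0% in ESC. Other leading Ube2 mRNAs were Ube2t and Ube2k in both oocyte groups, Ube2c, Ube2d3 and Ube2m in ESC, and Ube2d3, Ube2c and Ube2k in EpiC.

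In the Usp family most leading genes differed between oocytes and cultured cells, though Usp50 was first in both GV and EpiC. Usp50, Usp46, Usp19, Usp3 and Usp2 led in GV, and Usp19, Usp28, Usp15, Usp46 and Usp7 in MII. Usp48, Usp7, Usp50, Usp10 and Usp14 led in ESC, and Usp50, Usp10, Usp7, Usp14 and Usp5 in EpiC. Usp19, Usp28 and Usp15 made up 25.1%, 17.9% and 15.1% of all Usp TPM in MII.

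**Figure D1:**
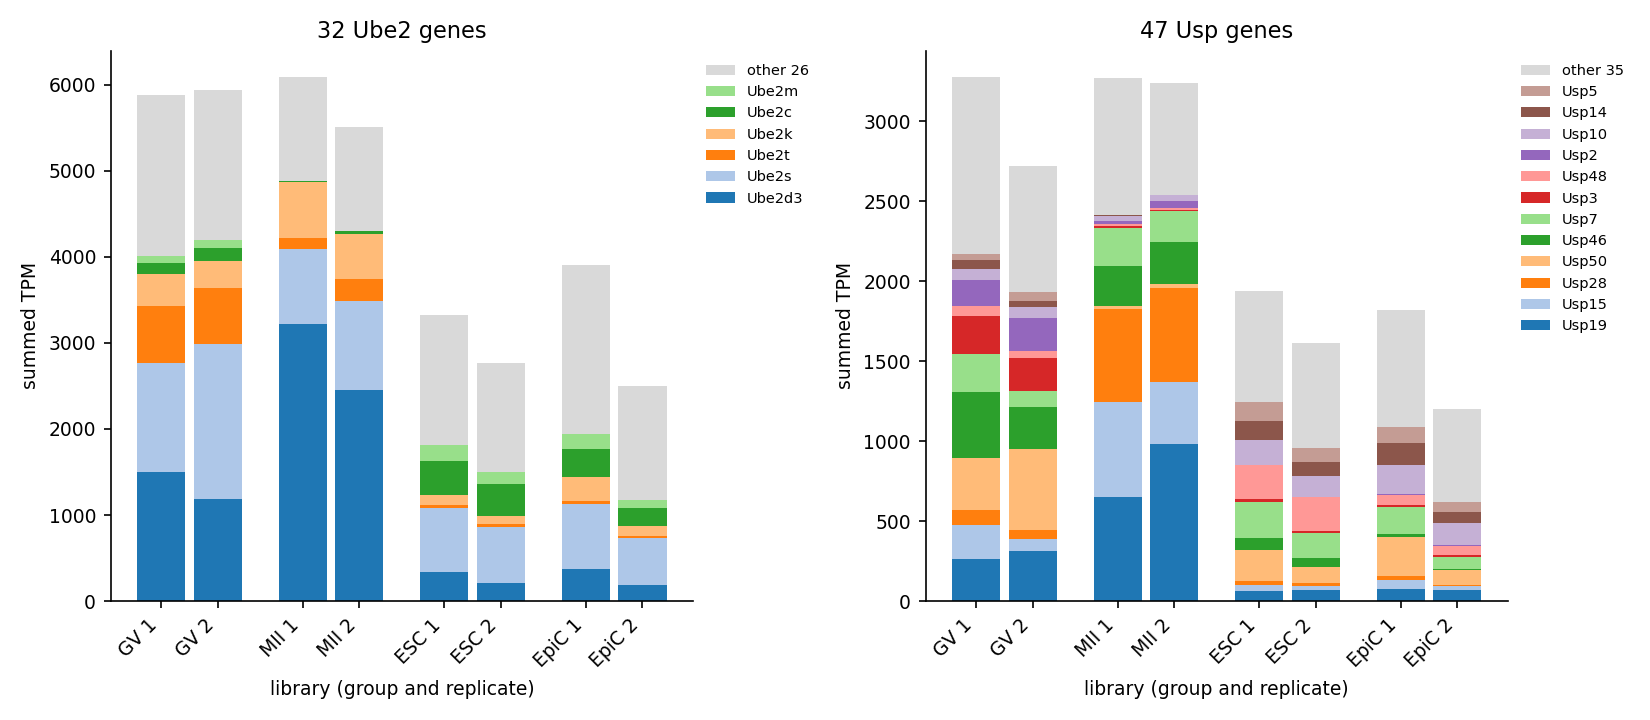
Summed TPM of the 32 Ube2 genes (left) and the 47 Usp genes (right) in each of the 8 libraries, with leading genes in colours of their own and the other members in grey. Both stacks are higher in the 4 oocyte libraries, where Ube2d3 reaches 3215 TPM and Usp19, Usp28 and Usp15 fill much of the MII columns.

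The leading value of Usp50 needs care. Its level was 326 and 503 TPM in GV, but 98.4% to 99.7% of its mean level in each group came from 1 transcript of 377 bases, Usp50-201 in the tables. That transcript was not found in GENCODE M21, the annotation used here for positions, so the Usp50 values describe this short model. Other members share sequence with neighbours: 66.2% of the 31-base words of Ube2v1 also occur in other genes, most of them in Gm20431, and the share is 50.8% for Usp49 (Gm20517) and for Ube2h (Gm26526), 32.9% for Ube2l3 (Ydjc) and 31.6% for Usp1 (Gm5841). Some sharing genes were themselves abundant. Ube2n shares 10.1% of its words, most with Ube2n-ps1, which was at 89.4 to 189 TPM over the libraries. Usp14 shares 25.8%, most with Thoc1, which was at 23.3 and 12.6 TPM in MII. Ube2e1 shares 24.1%, most with Nkiras1, which was at 179 to 197 TPM in oocytes. How kallisto split reads between such genes makes the values of these members less certain.

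Of the 79 members, 77 passed the count filter and were tested, 31 Ube2 and 46 Usp. Ube2d4 was listed at 0 in all 8 libraries. Usp18, which removes ISG15, had at most 17 estimated counts in any library. By mean level, 74 members reached 1 TPM in GV, 69 in MII, 74 in ESC and 75 in EpiC.

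The first comparison set GV oocytes against ESC, the cells held before the exit from naive pluripotency. By edgeR's quasi-likelihood test at an adjusted p under 0.05, 32 members were higher in GV, 14 were lower and 31 were not called. Among all 25045 genes tested, 28.3% were higher and 31.3% lower. Among the 17503 of them with a protein-coding transcript, as every member has, the shares were 31.2% and 31.8%. In the Ube2 family 14 were higher and 7 lower, and in the Usp family 18 and 7. The median log2 fold change was 0.61 over members, −0.51 over all genes tested and −0.14 over those with a protein-coding transcript.

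Ube2u, a rarely expressed E2-like gene, differed most. It had 899 and 1805 estimated counts in the GV libraries (13.7 and 10.1 TPM) but 0 and 2 in ESC. The ratio of summed counts per effective library was 1424, with a 95% Poisson interval of 394 to 11759 that covers counting error only. Usp2, a deubiquitinase with short and long isoforms, was at 161 and 207 TPM in GV against 2.68 and 5.27 TPM in ESC, and its fold change was 4.56 ± 0.53 on the log2 scale (± SE, with edgeR's adjusted p = 0.00013). Usp43, a little-studied protease, was at 17.2 and 17.9 TPM in GV and 1.41 and 0.752 TPM in ESC, for a fold change of 4.50 ± 0.44 on the log2 scale (adjusted p = 5.3e-05, edgeR). Ube2t, the E2 of the Fanconi anaemia repair pathway, was at 654 and 656 TPM against 36.4 and 35.3 TPM, a log2 fold change of 4.41 ± 0.47 (adjusted p = 8.3e-05, edgeR). In each of these 4 genes both GV libraries lay far above both ESC libraries. The 4, like the sets of 4 genes named below, were picked by the size of their fold. Gaps between the groups follow largely from that choice.

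On the lower side stood Ube2l6, the E2 for ISG15, at 1.46 and 0.929 TPM in GV and 22.6 and 12.5 TPM in ESC, for a fold change of −3.56 ± 0.55 on the log2 scale (adjusted p = 0.00058, edgeR). Usp22, the histone deubiquitinase of the SAGA coactivator, was at 5.29 and 7.09 TPM in GV against 58 and 60.5 TPM in ESC (−3.0 ± 0.34 on the log2 scale, adjusted p = 0.00011, edgeR). Ube2l3, an E2 for HECT and RBR ligases, was at 15.3 and 14.4 TPM against 89.4 and 67.4 TPM (log2 fold change −2.39 ± 0.38, adjusted p = 0.0007, edgeR). Usp40 was at 2.54 and 2.31 TPM against 6.08 and 10.2 TPM (log2 fold change −2.27 ± 0.44, adjusted p = 0.002, edgeR). The 2 groups did not overlap in any of the 4.

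By role, both RAD6-type E2 genes, Ube2a and Ube2b, which mark histone H2B and act in DNA damage tolerance, were higher in GV, by 1.95 ± 0.38 and 1.56 ± 0.35 on the log2 scale. Of the 7 E2 genes tied to the endoplasmic reticulum or to lysine-48 chains, 5 were higher in GV (Ube2g1, Ube2g2, Ube2j1, Ube2k and Ube2h) and only Ube2r2 was lower. Among all tested members 41.6% were higher and 18.2% lower, and among tested genes with a protein-coding transcript 31.2% and 31.8%. Roles this small can be all higher with no link between their genes. Counts by role, here and below, are therefore a description only. The genes of lysine-63 chain building differed in their calls. Ube2v1 and Ube2v2, the catalytically inactive partners, were lower by 1.60 ± 0.32 and 1.90 ± 0.45 on the log2 scale, and Ube2n, the active E2, was not called. Ube2n was at 28.0 and 27.8 TPM in GV and 47.8 and 30.7 TPM in ESC, and it shares words with Ube2n-ps1. Whether its change differed from those of its partners was not tested.

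Usp30, which works at the outer mitochondrial membrane and opposes mitophagy, was at 163 and 185 TPM in GV and at 10 and 13.1 TPM in ESC. Its log2 fold change was 4.28 ± 0.42 (adjusted p = 5.1e-05, edgeR). Among 7 histone deubiquitinases, Usp3, Usp16 and Usp51 were higher in GV, and Usp22 and Usp44 were lower. All 3 proteins linked to splicing, Usp39, Usp4 and Usp15, were higher, though the calls of Usp39 and Usp4 were lost in 9 and 4 of the 17 alternatives.

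The second comparison, MII against GV, follows the mRNAs through maturation. In edgeR 29 members were higher in MII, 23 were lower and 25 were not called. Among all genes tested 17.4% were higher and 22.2% lower, and among those with a protein-coding transcript 22.6% and 26.9%. The split between the families was 9 higher and 10 lower in Ube2, and 20 higher and 13 lower in Usp. The median log2 fold change was 0.42 over members, −0.53 over all genes tested and −0.44 over those with a protein-coding transcript.

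These directions are relative to the bulk of mRNAs, and the choice of values matters in MII. Counts were scaled by TMM, whose factors were 0.422 and 0.405 in the MII libraries against 1.08 and 1.15 in GV. On log2(TPM + 1) with limma, which moves the median of all genes by −0.87, 15 members were higher and 35 lower. That fit also changes the test, the length correction and the filter, whereas relative log expression scaling of the counts alone gave 32 higher and 19 lower. Of the called members, 14 of 29 higher ones and 18 of 23 lower ones kept their call in all 17 alternatives. Usp46 and Usp49 changed sign. Amounts per cell cannot be read from these values, and in bulk RNA fewer cells of a type and less RNA per cell cannot be told apart.

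Among the members that rose, Usp31 was at 5.64 and 2.91 TPM in GV and 40 and 23.4 TPM in MII, a log2 fold change of 4.20 ± 0.50 (adjusted p = 0.00055, edgeR). Usp28, which stabilises Myc and acts in the DNA damage response, rose from 93.4 and 57 TPM to 581 and 587 TPM (log2 fold change 4.13 ± 0.53, adjusted p = 0.0006, edgeR). Usp45, which deubiquitinates the repair nuclease ERCC1, was at 7.79 and 4.81 TPM in GV and 20.1 and 13.6 TPM in MII (log2 fold change 3.64 ± 0.43, adjusted p = 0.00054, edgeR). Usp37, which stabilises cyclin A, was at 17.5 and 10.7 TPM against 63 and 50.2 TPM (log2 fold change 3.28 ± 0.37, adjusted p = 0.00052, edgeR). In all 4 genes both MII libraries were above both GV libraries, also as TPM.

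Among those that fell, Ube2u went from 13.7 and 10.1 TPM in GV to 0.24 and 0.197 TPM in MII (log2 fold change −4.61 ± 0.81, adjusted p = 0.0019, edgeR). Usp4, which acts in splicing and signalling, went from 104 and 122 TPM to 1.41 and 3.19 TPM (log2 fold change −4.33 ± 0.48, adjusted p = 0.00052, edgeR). Usp5, which takes apart free ubiquitin chains, went from 36.8 and 56.6 TPM to 0.791 and 1.78 TPM (log2 fold change −4.14 ± 0.57, adjusted p = 0.00071, edgeR). Usp11, a deubiquitinase of DNA repair, went from 21.5 and 18.7 TPM to 0.278 and 0.804 TPM (log2 fold change −4.0 ± 0.58, adjusted p = 0.00081, edgeR). In these 4 genes, picked by fold, the GV and MII libraries did not overlap, and all 4 calls held in every alternative.

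**Figure D2:**
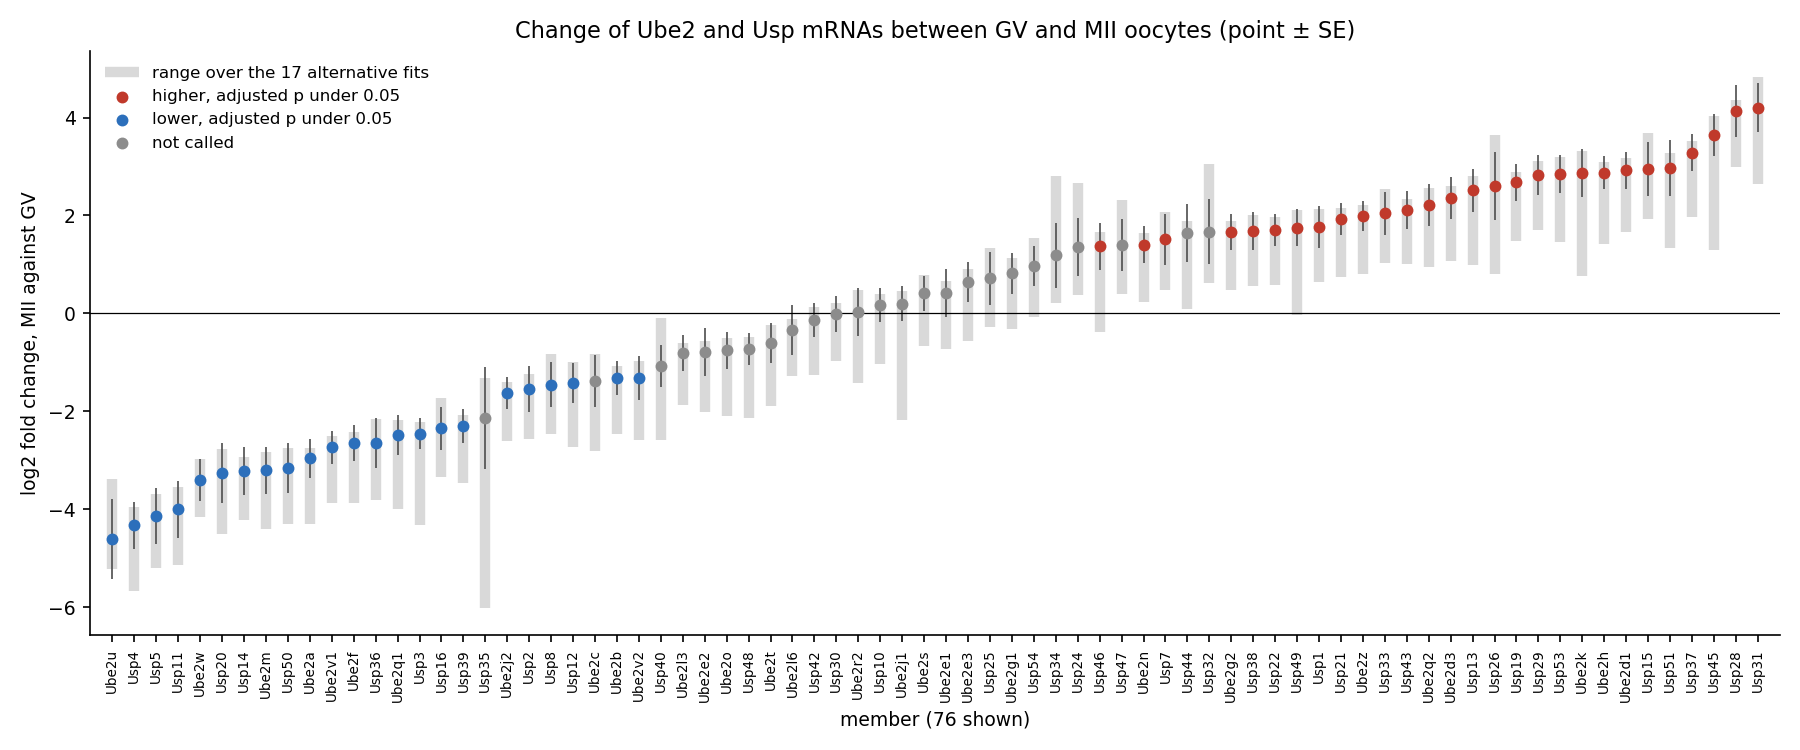
Log2 fold change (± SE) of 76 of the 77 tested members between MII and GV, in rank order, with red points higher and blue points lower at an adjusted p under 0.05. Grey bars span the 17 alternative fits and reach below the point for most members, down to the log2(TPM) fits. Ube2u stands lowest at −4.61 and Usp31 highest at 4.20.

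By role the E2 enzymes changed in different directions. Of all tested members 37.7% were higher and 29.9% lower in MII, so small roles can move together with no link between their genes. Ube2d1 and Ube2d3 rose, by 2.92 ± 0.38 and 2.36 ± 0.44 on the log2 scale, as did Ube2h (2.87 ± 0.34) and Ube2k (2.87 ± 0.49), while Ube2w, an E2 that marks protein N termini, fell by 3.41 ± 0.43. The calls of Ube2d3 and Ube2k were lost on both log2(TPM) scales, with both MII libraries still above both GV libraries. Both RAD6-type genes fell, Ube2a from 173 and 185 TPM to 6.61 and 12.1 TPM (log2 fold change −2.96 ± 0.39) and Ube2b from 204 and 183 TPM to 42.6 and 28.3 TPM (−1.33 ± 0.35). Both NEDD8 E2 genes fell, Ube2m from 77.3 and 92.5 TPM to 2.76 and 5.5 TPM and Ube2f from 35 and 32 TPM to 1.88 and 2.59 TPM. Ube2s and Ube2c, the APC/C enzymes, were not called: Ube2s was at 1268 and 1800 TPM in GV and 879 and 1036 TPM in MII, and Ube2c at 130 and 148 TPM against 10.5 and 36.4 TPM. For Ube2c the groups did not overlap, its log2 fold change was −1.38 ± 0.54 (adjusted p = 0.069, edgeR), and 6 of the 17 alternatives called it lower.

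Of the 3 enzymes of the proteasome and free chains, Usp14, a subunit bound to the proteasome, and Usp5 fell and Usp13 rose. Usp14 was at 57.9 and 31.8 TPM in GV and 1.98 and 2.46 TPM in MII, and it shares words with Thoc1, as given above. Usp19, an endoplasmic reticulum protease, rose from 265 and 314 TPM to 649 and 985 TPM (log2 fold change 2.67 ± 0.38). Among the histone deubiquitinases, Usp21, Usp22, Usp49 and Usp51 were called higher and Usp3 and Usp16 lower. The call of Usp49 rests on scaled counts, since it was at 26.9 and 17.3 TPM in GV and 22.8 and 19.3 TPM in MII. Usp30 was not called on the count scale, with a log2 fold change of −0.02 ± 0.36, and stood at 87.6 and 89.2 TPM in MII.

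Among the DNA damage enzymes, Usp1 and Usp7 were called higher with Usp28, yet their TPM ranges met: Usp7, which acts on Mdm2 and p53, was at 240 and 100 TPM in GV and 239 and 194 TPM in MII. Usp1, which acts on FANCD2 and PCNA, was at 82.2 and 42.6 TPM in GV and 110 and 79.0 TPM in MII. Of the endosome enzymes Usp8 fell, from 41.0 and 16.1 TPM to 4.32 and 4.82 TPM. Of the genes listed as inactive, testis-linked or imprinted, Usp26, Usp29 and Usp53 rose and Usp50 fell. Usp53, whose protein was long classed as inactive, was at 13.8 and 9.82 TPM in GV and 39.1 and 29.5 TPM in MII, and its MII libraries lay above every other library. For lysine-63 chains Ube2v1 fell from 41.0 and 44.8 TPM to 2.31 and 3.42 TPM and Ube2v2 from 27.8 and 15.2 TPM to 3.58 and 3.13 TPM. Ube2n, their partner, was at 28.0 and 27.8 TPM in GV and 37.4 and 28.9 TPM in MII, called higher on scaled counts and kept in 12 of 17 alternatives. Its level is less certain, since it shares words with Ube2n-ps1.

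Some related members parted at this step. The related sets were drawn up after the values had been seen. In 6 of 21 sets at least 1 member rose and another fell, in 6 all members moved in 1 direction, and in 9 at most 1 member was called. Of the closest pairs, Ube2a and Ube2b (95.4% identical aligned residues), Ube2d1 and Ube2d3 (88.4%) and Ube2v1 and Ube2v2 (85.5%) moved together. Ube2e1, Ube2e2 and Ube2e3 (82.8% to 88.1%) held at most 1 call, and Usp12 and Usp46 (88.3%) were called opposite. Of all tested members 37.7% were higher and 29.9% lower, so sets of unrelated members would hold opposite calls too. The share of such sets was not computed, and the 6 are given as a description only. Each of the 21 sets shares no 31-base word between its coding sequences, so reads of 1 member could not be counted for another there.

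The clearest set was Usp4, Usp11 and Usp15, whose proteins have 50.4% (Usp4 and Usp11), 60.4% (Usp4 and Usp15) and 49.9% (Usp11 and Usp15) identical aligned residues. Usp4 and Usp11 fell as given above, while Usp15 rose from 212 and 75.2 TPM to 600 and 387 TPM (log2 fold change 2.95 ± 0.55, adjusted p = 0.0025, edgeR). By mean TPM Usp15 stood at 144 and Usp4 at 113 in GV, and at 493 and 2.30 in MII. Usp16, a histone H2A deubiquitinase, fell from 144 and 65.5 TPM to 8.41 and 10.8 TPM, and its relative Usp45 (41.2% identical) rose. Usp20 fell from 9.6 and 13.1 TPM to 0.322 and 0.777 TPM. Usp33, its partner in receptor recycling (61.5% identical), rose from 26.8 and 14 TPM to 39.4 and 41.9 TPM.

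These 3 sets kept their opposite calls in all 17 alternatives. Usp5 and Usp13 (62.5% identical), and Ube2q1 and Ube2q2 (75.3%), were opposite on count scales, but the rises of Usp13 and Ube2q2 were not called on log2(TPM). Usp13 stood at 3.75 and 2.19 TPM in GV and 7.92 and 5.67 TPM in MII. For Usp12 and Usp46 (88.3% identical) only the fall of Usp12 is clear as TPM: Usp46 was at 411 and 265 TPM in GV and 246 and 263 TPM in MII, a log2 fold change of 1.37 ± 0.48 on scaled counts and −0.37 on log2(TPM + 1).

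**Figure D3:**
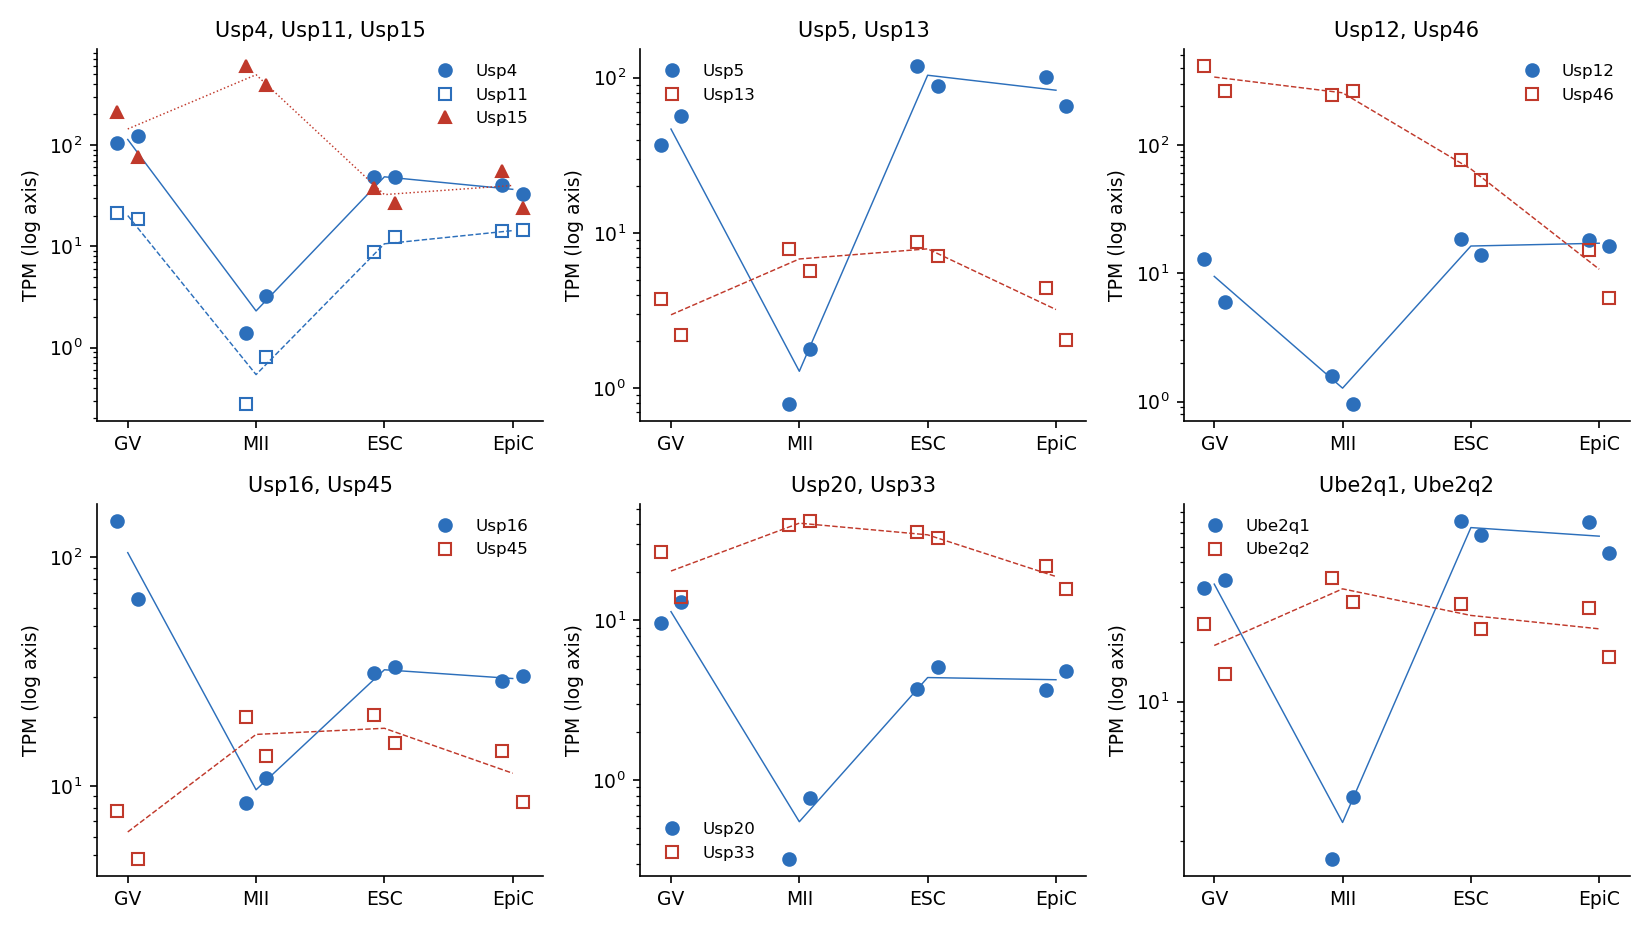
TPM on a log axis in the 2 libraries of each group for the 6 sets of related members in which 1 member was called higher and another lower in MII than in GV; lines join the group means, red marks members that rose and blue those that fell. Usp4 and Usp11 drop in MII while Usp15 climbs to 600 and 387 TPM.

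The 3′ ends of these mRNAs were then read, since cytoplasmic polyadenylation elements near the end of a 3′ UTR are known to lengthen poly(A) tails during maturation. The labels do not say whether the libraries were selected for poly(A). For 66 members the last 100 bases of the most abundant coding transcript in oocytes were searched, on the mRNA strand, for TTTTAT or TTTTAAT. The motif was in 6 of 27 members that rose (22.2%), 1 of 19 not called (5.26%) and 3 of 20 that fell (15.0%). Over 14834 genes it was in 19.0%, and in 34.5% of those that rose, 16.3% of those not called and 9.43% of those that fell. Over all ends searched, the shares of the members lie closer together than those of all genes, on small numbers. The count was also limited to ends with AATAAA or ATTAAA in the last 40 bases, a signal read below. There the motif was in 6 of 25 members that rose (24%), 1 of 14 not called (7.14%) and 0 of 7 that fell. The shares over all genes with such ends were 36.4%, 16.5% and 7.6%, in the same order.

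The windows below are from GENCODE M21 on GRCm38, with the motif in capitals. They are shown because Usp28, Usp37, Usp19 and Ube2k are among the members that rose, whereas Ube2w and Usp3 fell with the same letters near their ends.
Usp28, chr9:49042461-49042490, + strand: caactatgcaggTTTTATaaatgtgcaata
Usp37, chr1:74435532-74435561, − strand: tgttttgttttgTTTTAATgtgtgagagac
Usp19, chr9:108502219-108502248, + strand: caaacattataaTTTTATtctaaaaattgt
Ube2k, chr5:65595657-65595686, + strand: aggggctgccaaTTTTATttctctcacaaa
Ube2w, chr1:16569793-16569822, − strand: gtgattaatgtaTTTTATaaattacctttt
Usp3, chr9:66518128-66518157, − strand: ttctgtttgactTTTTATattaatgttttc

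The windows of Usp28 and Usp37 end 20 and 21 bases before the annotated end, and those of Usp19 and Ube2k 69 bases before it. The windows of Ube2w and Usp3 end 11 and 53 bases before it, and all 6 lie in 3′ UTRs. A second signal was read at the same ends. AATAAA or ATTAAA, the hexamers that direct cleavage and polyadenylation, stood in the last 40 bases of 25 of 27 members that rose (92.6%) and 7 of 20 that fell (35.0%), against 84.1% and 67.7% over all genes. Where the hexamer is not in this window, the annotated end may not be the end used in oocytes. Ube2w and Usp3 lack the hexamer there, while Usp28, Usp37, Usp19 and Ube2k have it. A match of letters is a description, and its part in the changes was not tested.

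The third comparison set MII oocytes against EpiC. In edgeR 39 members were higher in MII, 23 were lower and 15 were not called, with 28.5% and 39.6% of all genes tested higher and lower. Among tested genes with a protein-coding transcript the shares were 32.7% and 41.2%. On log2(TPM + 1) the same counts were 23 and 35. Of the 39 higher calls 23 held in all 17 alternatives, as did 20 of the 23 lower ones, and Ube2d1, Ube2e3, Ube2n, Ube2z and Usp3 changed sign. The median log2 fold change was 1.18 over members, −1.23 over all genes tested and −0.71 over those with a protein-coding transcript.

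Usp28 led, at 581 and 587 TPM in MII and 23.6 and 8.42 TPM in EpiC (log2 fold change 6.71 ± 0.60, adjusted p = 2.1e-05, edgeR). Usp46 was at 246 and 263 TPM against 15.1 and 6.45 TPM (log2 fold change 6.44 ± 0.60, adjusted p = 2.6e-05, edgeR). Usp19 was at 649 and 985 TPM against 76.2 and 70.4 TPM (log2 fold change 5.32 ± 0.43, adjusted p = 1.4e-05, edgeR), and Usp43 at 32.3 and 40.6 TPM against 3.27 and 2.17 TPM (5.28 ± 0.46, adjusted p = 1.9e-05). All 4 were several-fold higher in every MII library than in either EpiC library.

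Lowest was Ube2v1, at 2.31 and 3.42 TPM in MII and 187 and 145 TPM in EpiC (log2 fold change −4.68 ± 0.37, adjusted p = 1.2e-05, edgeR), though it shares sequence with Gm20431, itself at 19.5 and 11 TPM in EpiC. Usp5 was at 0.791 and 1.78 TPM against 100 and 65.8 TPM (log2 fold change −4.43 ± 0.58, adjusted p = 0.00016, edgeR). Usp14, which shares words with Thoc1, was at 1.98 and 2.46 TPM against 140 and 66.2 TPM (log2 fold change −3.92 ± 0.51, adjusted p = 0.00016, edgeR). Usp36, a nucleolar deubiquitinase, was at 0.402 and 1.32 TPM against 36.4 and 39.1 TPM (log2 fold change −3.81 ± 0.54, adjusted p = 0.00025, edgeR). For all 4 both MII libraries lay far below both EpiC libraries.

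The pair of oocyte comparisons shares no library. In both, 22 members were higher in the oocyte, where 19.8% of all genes were, and 10 were lower, where 23.9% of all genes were. The 22 include Ube2d3, Ube2t, Ube2k, Ube2h, Ube2g1 and Ube2g2, and Usp19, Usp28, Usp30, Usp43 and Usp46. The 10 are Ube2l3, Ube2l6, Ube2r2, Ube2v1, Ube2v2, Usp22, Usp25, Usp40, Usp44 and Usp48.

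Neither oocyte comparison called 7 members, against 19.1% of all genes: Ube2e2, Ube2o, Usp8, Usp10, Usp34, Usp35 and Usp54. In MII against EpiC each of the 7 was left uncalled in 11 to 15 of the 17 alternatives. Usp10, which acts on p53 and stress granule proteins, was at 72.5 and 70.4 TPM in GV, 31.7 and 38.0 TPM in MII, and 129 to 178 TPM in cultured cells. Some members differed widely between the GV libraries. Usp34, a very large protease, was at 53.6 and 12.1 TPM there, Usp24 at 9.83 and 2.06, Usp32 at 19.2 and 4.24, and Usp47 at 46.9 and 13.9 TPM, each lower in the deeper replicate 2.

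The difference of the 2 comparisons, GV against ESC minus MII against EpiC, was tested in the same model. It was above 0 for 19 members and below 0 for 21 at an adjusted p under 0.05, with 16.4% and 13.2% of all genes in these classes. Among tested genes with a protein-coding transcript the shares were 20.9% and 17.8%. On log2(TPM + 1) the counts were 32 and 13. The most negative values were −4.62 ± 0.69 for Usp28, −4.33 ± 0.57 for Usp45, −3.86 ± 0.60 for Usp13 and −3.64 ± 0.49 for Usp37. The most positive were 7.5 ± 1.33 for Ube2u, 4.41 ± 0.76 for Usp11, 3.84 ± 0.74 for Usp5 and 3.84 ± 0.62 for Usp4. The value of Ube2u rests on the near-empty ESC libraries and has no firm size.

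**Figure D4:**
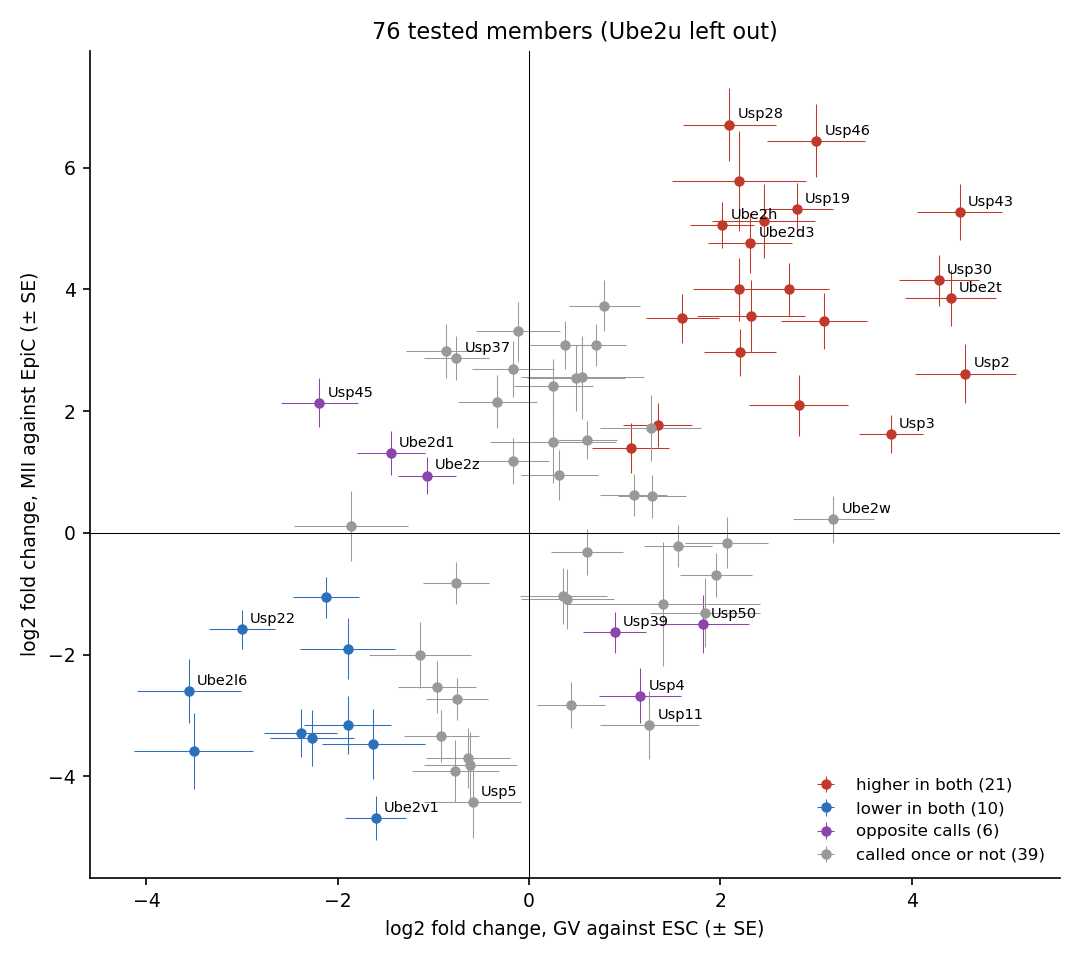
Log2 fold change (± SE) of 76 tested members in GV against ESC (horizontal axis) and MII against EpiC (vertical axis), with Ube2u left out because it is near 0 counts in ESC. Points in red are higher and points in blue lower in both comparisons, 6 members in purple have opposite calls, and Usp28 stands highest at 6.71.

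EpiC and ESC differed in few members. In edgeR Usp25 was higher in EpiC, Usp46 and Usp48 were lower, and 74 members were not called, with 2.63% and 2.83% of all genes higher and lower. Usp25 was at 1.6 and 1.35 TPM in ESC and 12.4 and 5.2 TPM in EpiC (log2 fold change 2.55 ± 0.55, adjusted p = 0.03, edgeR). Usp46, which deubiquitinates histones and glutamate receptors, was at 77 and 52.9 TPM against 15.1 and 6.45 TPM (log2 fold change −2.07 ± 0.49, adjusted p = 0.044, edgeR). Usp48 was at 213 and 210 TPM in ESC and 63.1 and 59.1 TPM in EpiC (log2 fold change −1.79 ± 0.34, adjusted p = 0.018, edgeR). The groups did not overlap for these 3 genes, which follows largely from their choice by call on the same libraries. None of the 3 calls held in all 17 alternatives, and each was lost without ESC replicate 1 and without ESC replicate 2.

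Usp25 and Usp28, whose proteins are 51.8% identical, took opposite places. Usp25 was at most 0.49 TPM in the oocyte libraries, and 12.4 and 5.2 TPM in EpiC. Usp28 was at 57 to 587 TPM in the oocyte libraries and at most 27.9 TPM in cultured cells. In MII against EpiC the log2 fold change was −3.47 ± 0.58 for Usp25 and 6.71 ± 0.60 for Usp28. For Usp25 the call in GV against ESC was lost in 8 of 17 alternatives.

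The tables list transcripts, and transcript usage was compared between the 4 oocyte and the 4 cultured libraries with edgeR's diffSpliceDGE. It changed in 46 of 67 members tested, where 52.5% of the 11953 genes tested did. The member's total can therefore hide which mRNA was present.

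Usp19-016, a protein-coding transcript of 4517 bases, was at 43.7 and 43.9 TPM in GV and 134 and 167 TPM in MII, and at most 1.18 TPM in cultured cells (adjusted p = 8.9e-08 for its usage). Usp19-004, of 4512 bases, remained the main form in all groups. Usp29, a deubiquitinase gene in the imprinted Peg3 region, used Usp29-201 at 2.48 and 1.23 TPM in GV and 12.5 and 11.7 TPM in MII, and that transcript was listed at 0 in all 4 cultured libraries (adjusted p = 9.8e-08). In EpiC 60.1% of Usp29 TPM came from Usp29-004, labelled a processed transcript in the tables.

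Usp2 shows a caveat of gene sums. In GV only 30.5% of its TPM was in protein-coding transcripts against 84.9% in ESC. Usp2-008, labelled for nonsense-mediated decay, was at 52.3 and 77.2 TPM in GV and at most 0.378 TPM in cultured cells. The protein-coding Usp2-006 was also higher in oocytes, at 28 and 41.8 TPM in GV and at most 1.35 TPM in cultured cells. With coding transcripts only, Usp2 kept its call in GV against ESC.

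Coding shares were low in all groups for Usp3 (25.6% in GV, 17.1% in MII, 39.5% in ESC and 45.2% in EpiC). The same held for Usp16, at 28.3%, 22.6%, 37.7% and 34.8% in that order, and for Ube2r2, at 21%, 24.5%, 29.1% and 28.9%. Usp3 was higher in MII than EpiC over all transcripts (log2 fold change 1.62 ± 0.31) but not in coding transcripts alone (−0.30). Ube2k moved the other way, from 44.1% of TPM in coding transcripts in GV to 88.7% in MII. Its transcript labelled for decay, Ube2k-004, was at 186 and 194 TPM in GV and 9.41 and 109 TPM in MII, so its 2 MII libraries differed widely.

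**Figure D5:**
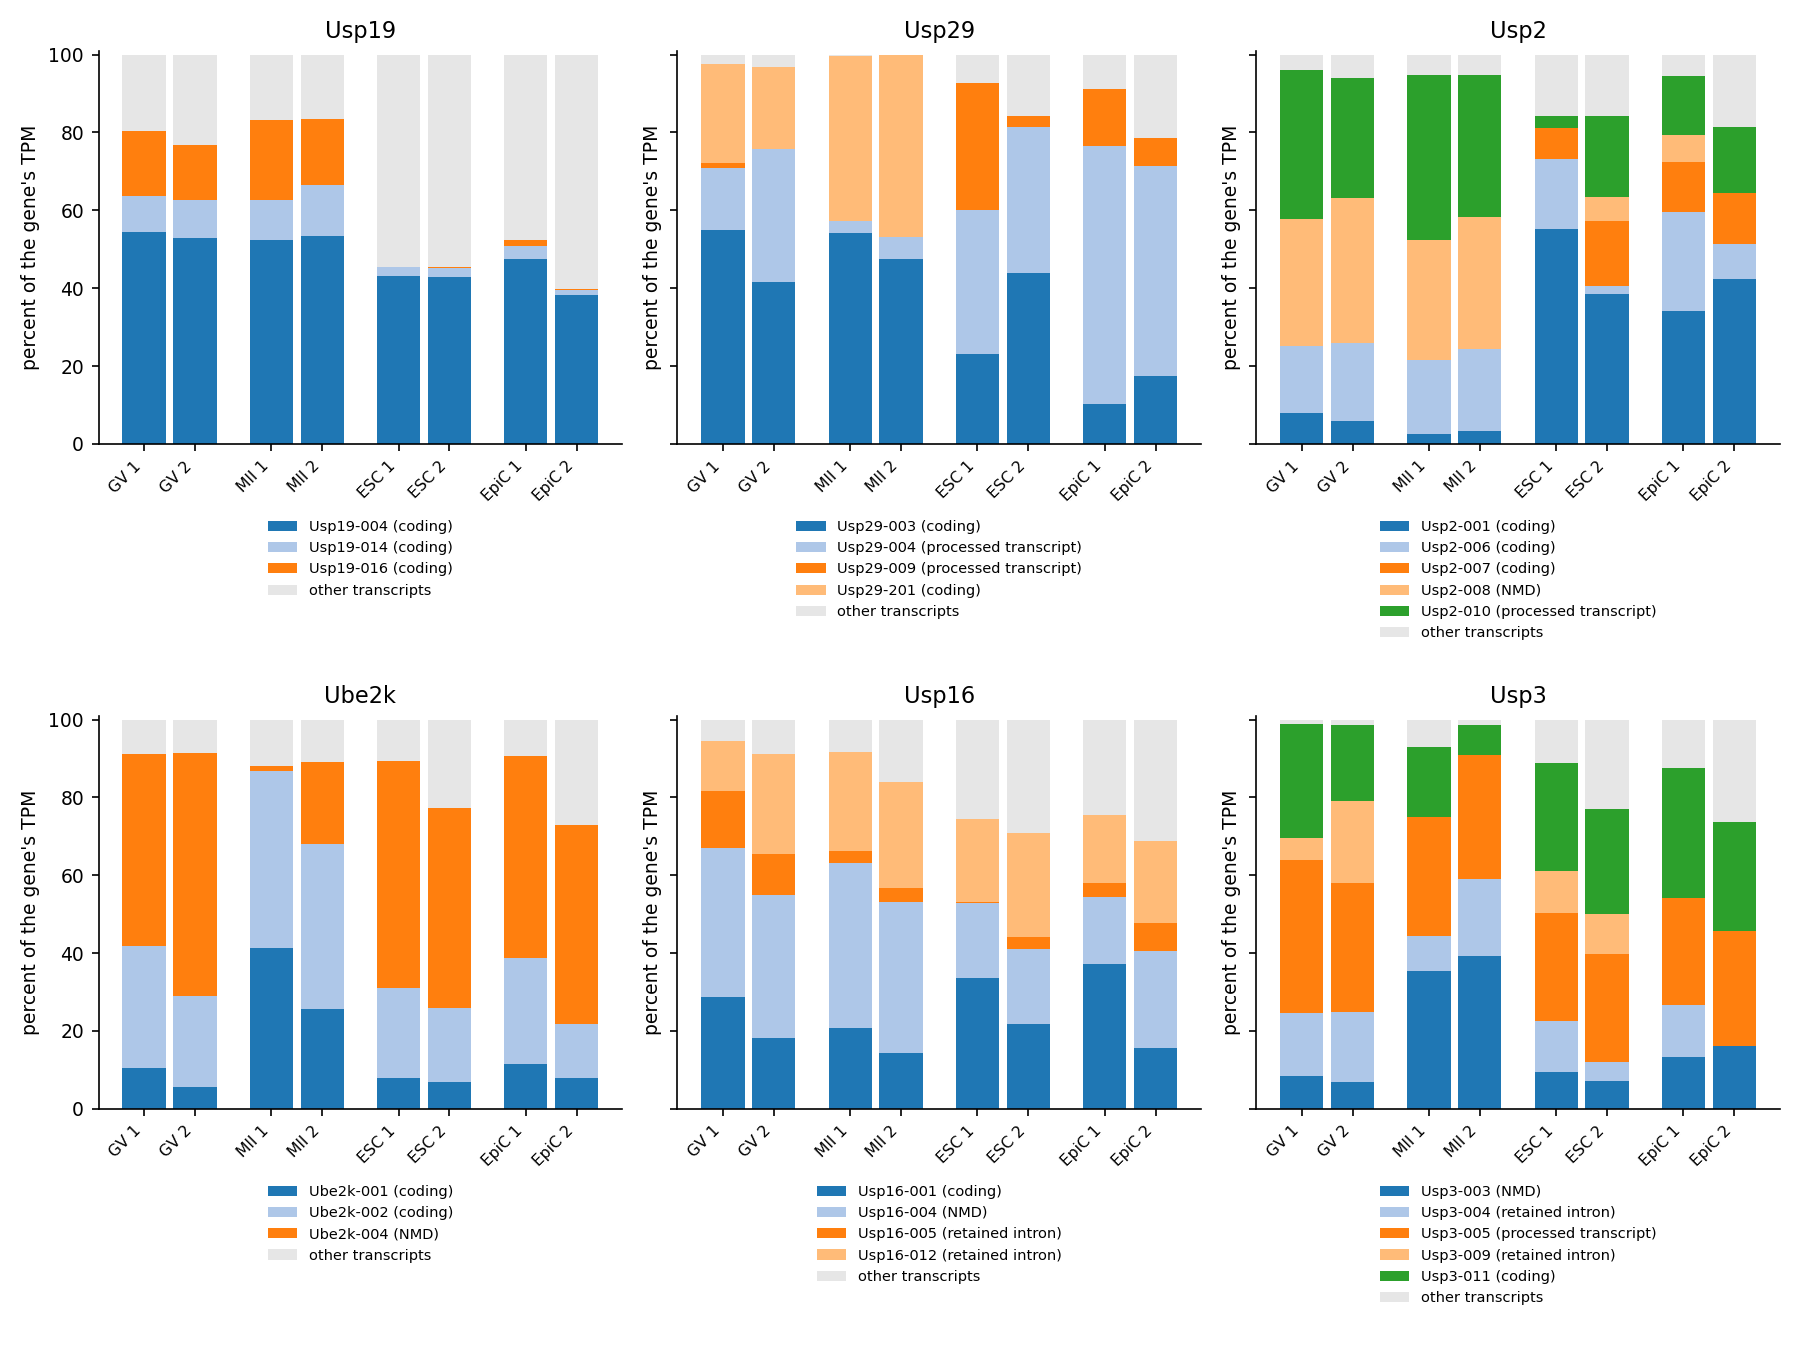
Percent of the gene's TPM held by each transcript with at least 10% in some group, in each of the 8 libraries, for 6 members; coding, NMD (nonsense-mediated decay) and other labels are those of the tables. Usp19-016 and Usp29-201 appear in oocyte libraries and are near or at 0 in cultured cells, Usp2 holds a smaller coding share in oocytes than in cultured cells, and Ube2k-004 is smaller in MII than in GV.

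Around the members, a list of 54 further genes of the pathway (E1 enzymes, ubiquitin precursors, E2 and deubiquitinase genes outside the symbol rule) was read the same way. Of 53 tested, 14 were higher and 21 lower in GV against ESC, 16 and 15 in MII against GV, 19 and 20 in MII against EpiC, and 0 and 0 in EpiC against ESC. The shares of all genes tested were 28.3% and 31.3%, 17.4% and 22.2%, and 28.5% and 39.6% in the first 3 of these. Among tested genes with a protein-coding transcript they were 31.2% and 31.8%, 22.6% and 26.9%, and 32.7% and 41.2%. Otub2 and Uchl1, deubiquitinases of other classes, were the most raised in GV, Otub2 at 73.9 and 74 TPM against 1.44 and 1.45 TPM in ESC, and Uchl1 at 3093 and 5586 TPM against 103 and 107 TPM. In maturation Birc6, a giant E2 that inhibits apoptosis, rose from 7.29 and 3.92 TPM to 59.2 and 32.6 TPM (log2 fold change 4.46 ± 0.48), and Otud1 from 5.05 and 4.92 TPM to 30.8 and 27.2 TPM (3.70 ± 0.34). Ube2d2a, a close relative of Ube2d3, was at 1025 and 795 TPM in MII and 110 and 60.6 TPM in EpiC (log2 fold change 4.90 ± 0.43).

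Genes that encode ubiquitin itself were in the list too. The polyubiquitin gene Ubb, named here after its values were seen, went from 3387 and 5607 TPM in GV to 264 and 441 TPM in MII (log2 fold change −2.51 ± 0.43). Rps27a, a fusion of ubiquitin with a ribosomal protein, went from 317 and 379 TPM to 2.71 and 12.1 TPM (log2 fold change −4.27 ± 0.69). Otub1, which binds several E2 enzymes, fell with them, from 118 and 253 TPM to 0.814 and 5.44 TPM (log2 fold change −4.79 ± 0.81). Their adjusted p-values in edgeR lay between 0.0013 and 0.0017.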

How the data were processed

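RNA-seq of 8 libraries was deposited as 1 transcript table per library. The authors' tables give estimated counts and TPM, made with kallisto 0.43 on build mm10, per the submitters' processing notes. Options, annotation release and poly(A) selection are not given in the sources used here. Deposited expected counts were summed per gene and rounded to whole numbers, and deposited TPM values were summed per gene. Genes kept by filterByExpr (25045) were fitted over all 8 libraries in 4 groups with edgeR 4.0.16 (TMM scaling, robust quasi-likelihood test, 4 residual degrees of freedom, R 4.3.3) and Benjamini-Hochberg adjustment over all genes at 0.05. The SE of a log2 fold change is the fold divided by the root of F, and is approximate. Transcript usage was tested with diffSpliceDGE. Alternatives used DESeq2 1.42.0, limma 3.58.1 on log2(TPM + 1) and log2(TPM + 0.1) for genes with at least 1 TPM in 2 libraries, other filters, scalings and sample sets, and leaving out each library. The main edgeR fit, DESeq2, limma on log2(TPM + 1) and the transcript usage test were run on simulated data. The other alternatives were not. Fold changes on scaled counts can differ from TPM ratios.

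Every member could be named. Fold, SE and adjusted p were given for up to 4 called members per direction and comparison with the largest fold and at least 5 TPM in a group. For the pathway list up to 2 called genes per direction could be named, and near-identical Usp17 copies were left out as uncertain. Some genes that the rule would name are not reported here. Other folds were chosen after their values were seen. The members and lists were chosen with earlier results of these data known. Positions, 3′ ends and protein alignments used GENCODE M21 on GRCm38. Intervals on counts cover counting error only.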

Additional observations from a re-analysis of the deposited data

Results flagged for a closer look

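For 6 members GV oocytes and MII oocytes differed from their cultured counterparts in opposite directions, and the difference between both comparisons was itself past the threshold (edgeR quasi-likelihood test, Benjamini-Hochberg adjustment). The value is GV against ESC minus MII against EpiC on the log2 scale. Usp4 (3.84, adjusted p = 0.0029), Usp50 (3.31, adjusted p = 0.0070) and Usp39 (2.53, adjusted p = 0.0048) stood above ESC in GV oocytes but below EpiC in MII oocytes. Usp45 (−4.33, adjusted p = 0.0018), Ube2d1 (−2.76, adjusted p = 0.0044) and Ube2z (−2.01, adjusted p = 0.0083) stood below ESC in GV oocytes but above EpiC in MII oocytes. Over all genes tested, 1.72% had the first pattern and 1.39% the second. As TPM, Ube2d1 was at 33.6 and 25.9 in MII and 41.6 and 26.1 in EpiC, and Ube2z at 42.7 and 46 against 66.2 and 60.2, so their higher calls in MII do not hold as TPM. Usp45 was at 20.07 and 13.55 TPM in MII against 14.25 and 8.5 TPM in EpiC, so its 2 groups overlapped as TPM. The value of Usp50 rests on its 377-base transcript.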

How the results depend on the processing

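The fits on TPM, which change the test, the length correction and the filter as well as the scaling, moved the MII results most. Relative log expression scaling of the counts gave 32 members higher and 19 lower in MII against GV and 40 and 22 in MII against EpiC. With limma on log2(TPM + 1) and log2(TPM + 0.1), MII against GV had 15 and 14 members higher and 35 and 36 lower (main 29 and 23), MII against EpiC 23 higher and 35 lower on both (main 39 and 23), and the difference 32 above and 13 below 0 on both (main 19 and 21). Over all genes on log2(TPM + 1) the higher share of calls was 24.6% in MII against GV (main 43.9%), 30.9% in MII against EpiC (main 41.8%) and 73.5% in the difference (main 55.4%). On the same 2 scales Usp46 in MII against GV turned to −0.37 and −0.37, and in MII against EpiC Ube2d1 turned to −0.16 and −0.16, Ube2z to −0.50 and −0.51, and Usp3 to −0.020 and −0.021 (−0.30 with coding transcripts only), with Ube2e3 and Ube2n as low as −0.17 and −0.22. Of 1926 alternative values of 114 single folds, 1814 kept direction and call, 103 lost the call and 9 reversed.

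For EpiC against ESC, members higher (main 1) numbered 2 with relative log expression scaling, 4 with DESeq2, 2 without a count filter, 2 with a replicate block, 2 with coding transcripts only and 0 with only the groups compared. Members lower (main 2) numbered 1 with relative log expression scaling and 0 with only the groups compared. All genes called (main 1367) numbered 2882 with DESeq2, 2580 without a count filter, 833 with only the groups compared and 2319 with limma on log2(TPM + 1). Leaving out each library gave 0 to 1 members higher, 0 to 2 lower and 409 to 1256 genes. The lowest count came without ESC replicate 1, and the difference then had 4932 genes, with 4932 to 6644 over all left-out libraries (main 7431). Leaving out each library gave 23 to 38 higher and 11 to 14 lower in GV against ESC, 33 to 41 and 20 to 24 in MII against EpiC, and 22 to 31 and 19 to 24 in MII against GV.

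Replicate numbers recur across groups, and the correlation of replicate differences was 0.756 for ESC and EpiC, 0.446 for GV and MII, 0.112 for GV and EpiC, and 0.018 to 0.066 for the other pairs of groups. No label says what a number shares and only 2 numbers exist, so they were not taken as pairing, although replicate 2 was the deeper library in every group. With a replicate block, GV against ESC had 33 members higher and 18 lower, MII against EpiC 41 and 25, MII against GV 35 and 24, the difference 21 and 26, EpiC against ESC 2 and 3, and transcript usage changed in 49 members. Members that the block called and the fit without it did not include Ube2c and Usp54 in MII against GV, and Usp10, Usp20, Usp34 and Usp54 in MII against EpiC. The causes of these shifts were not tested. With 2 libraries a group, small differences were not detectable.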
